A study of Mus musculus with 6 samples.

Results

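A set of 8 genes of Schwann cells and their myelin was followed through RNA sequencing of atrial tissue from old mice: Mbp, Pmp22, Prx, Ncmap, Sox10, S100b, Cdh19 and Gfra3. They were chosen by symbol as glial and myelin genes, to measure nerve tissue in each atrial sample, and are 8 of the 54838 genes counted. All 8 had reads in at least 5 of the 6 libraries, and 6 of them (all but Ncmap and S100b) passed the filter on low counts that 14708 genes passed. The study compares 3 libraries of PKC-epsilon knockout (KO) mice, which lack protein kinase C epsilon, the product of Prkce, with 3 libraries of wild-type (WT) mice. The labels give JAX stock 004189 as the knockout line and C57BL/6J as the wild type, do not say whether the groups were littermates, and record no treatment. All mice were old (an average of 20.9 ± 0.43 months, the kind of error not stated), both sexes were used, and each library is a separate biological replicate, so p-values measure the spread between these 6 samples.

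Schwann cells are the glia of peripheral nerves. Myelinating Schwann cells wrap single large axons in layers of membrane held together by proteins such as PMP22 and MBP, while non-myelinating (Remak) Schwann cells sheathe bundles of thin axons. In the heart, nerve fibres of the sympathetic and parasympathetic systems run through the atrial wall, clusters of intrinsic ganglion neurons sit in the fat on the atrial surface, and most cardiac axons are thin and carry little or no myelin. Transcription of the myelin genes is driven by SOX10 together with EGR2 (also called KROX20).

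The labels disagree on 4 of the 6 libraries, and this touches every comparison here. For these the name of the library states one genotype while its title, line and genotype entry state the opposite, so both readings are reported. Libraries are called KO or WT by library name, with the replicate number. By the genotype field, KO replicate 1, WT replicate 2 and WT replicate 3 are KO, and KO replicates 2 and 3 and WT replicate 1 are WT. Only KO replicate 1 and WT replicate 1 keep their group, so a fold change can turn sign between the readings through the relabelling alone. Prkce itself was at 9.19, 5.14 and 28.6 CPM (counts scaled to library size) in KO replicates 1, 2 and 3, against 36.2, 11.7 and 30.2 CPM in WT replicates 1, 2 and 3. Its level thus went against the library name in KO replicate 3 and WT replicate 2, and against the field in KO replicate 2 and WT replicate 3. Total counts ran from 11574206 in WT replicate 2 to 24138824 in WT replicate 3, and Y-linked genes were near 0 in WT replicates 1 and 2 alone. Both are WT by library name, so differences by name cannot be cleanly separated from the Y-linked level, a mark of sex. By field, WT replicate 2 is KO and WT replicate 1 is WT. In bulk tissue, fewer Schwann cells and less RNA per Schwann cell cannot be told apart.

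The upstream sequences of 3 of these genes are shown because Pmp22 and Ncmap were highest in the same pair of libraries while Prx was lowest in one of that pair (values below). For Ncmap, with at most 10 counts a library, that order lies within counting error, except between KO replicate 2 and WT replicate 1. Of the 8 members, 4 are in the RefSeq promoter table used here (GRCm38.p6), namely Pmp22, Prx, Ncmap and S100b, and each window is the 250 bases before an annotated transcription start, 5′ to 3′. Capitals mark matches to GCGTGGG, the core of the site bound by EGR proteins, searched on both strands. Windows are chr11:63128732-63128981 (plus strand) for the most upstream Pmp22 start, chr7:27499074-27499323 (plus strand) for Prx and chr4:135385673-135385922 (minus strand) for the downstream Ncmap start.
Pmp22: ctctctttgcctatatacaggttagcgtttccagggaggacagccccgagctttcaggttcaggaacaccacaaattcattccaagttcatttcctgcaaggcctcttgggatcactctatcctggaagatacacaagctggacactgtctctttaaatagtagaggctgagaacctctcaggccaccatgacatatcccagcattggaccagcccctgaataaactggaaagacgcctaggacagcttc
Prx: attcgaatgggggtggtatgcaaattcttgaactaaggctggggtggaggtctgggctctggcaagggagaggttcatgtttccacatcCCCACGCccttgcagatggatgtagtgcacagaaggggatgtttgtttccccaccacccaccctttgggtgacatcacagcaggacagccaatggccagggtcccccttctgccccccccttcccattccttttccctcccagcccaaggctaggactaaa
Ncmap: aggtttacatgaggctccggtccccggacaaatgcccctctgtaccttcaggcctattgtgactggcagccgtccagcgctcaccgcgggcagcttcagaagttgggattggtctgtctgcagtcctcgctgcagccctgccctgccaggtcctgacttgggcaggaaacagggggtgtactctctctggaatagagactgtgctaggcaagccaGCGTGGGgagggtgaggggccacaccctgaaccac
Prx held 1 match, on the opposite strand at offset -161 from the start site, and Ncmap held 1 at offset -35 on the same strand. No other of the 8 windows of the 4 genes held one, neither the upstream Ncmap start, nor any Pmp22 start, nor S100b. Of all 32851 windows of this length in the table, 4.30% hold such a match. The letters ACAAAG or ACAATG, cores of SOX sites that do not overlap with GCGTGGG, were in none of the 8 windows of the 4 genes and are in 25.2% of all windows. These are letter matches only and say nothing of binding. Pmp22 is known to start in myelinating Schwann cells from the upstream site shown and in other tissues from sites further downstream, and counts per gene do not separate them.

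Neither reading of the labels gave a called difference in any of the 6 members tested. By library name, 1 member was higher and 5 were lower in KO, where 45.5% of all genes tested were higher, and the members' median log2 fold change was -0.12 (all genes -0.02). By genotype field, 3 were higher and 3 lower, where 48.1% of all genes were higher, with a median of -0.00096 (all genes -0.01). With edgeR's quasi-likelihood test and Benjamini-Hochberg adjustment over all 14708 genes, 0 genes (0%) were called by library name, and DESeq2 and limma-voom called 0 as well. There, 219 genes (1.49%) had an unadjusted p under 0.05, among them 0 of the members. By genotype field 2 genes (0.0136%) were called, neither a member, and 837 (5.69%) had an unadjusted p under 0.05, again 0 of them members. DESeq2 called 27 genes (0.3% of those it gave an adjusted p) and limma-voom 1 (0.0068%) by field, none a member, but DESeq2 gave no adjusted p there for Sox10, Cdh19, Prx and Gfra3. With the replicate number as a block that count was 51, again with no member among them. Of the marker genes of all lists, edgeR without the block called Myl2, the ventricular myosin light chain, at a log2 difference of 3.09 (SE 0.25, adjusted p 0.00386) by field. DESeq2 also called Myl3, another myosin light chain, and the block fit called Myl3 and the collagen gene Col1a1.

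Pmp22 and Mbp carried most of the members' reads. PMP22 is a membrane protein of compact myelin, dosage-sensitive in inherited neuropathies and also made by fibroblasts and endothelium. Pmp22 (chromosome 11 at 63128982 to 63159547, GRCm38, no overlapping gene) was at 123, 166 and 110.4 CPM in KO replicates 1, 2 and 3, against 119, 159 and 118 CPM in WT replicates 1, 2 and 3. KO replicate 2 and WT replicate 2 stood above the other 4 libraries, with 95% Poisson intervals of 159 to 173 and 152 to 166 CPM against upper bounds of at most 129 CPM. The groups overlapped and had nearly the same mean, 133 ± 29.0 CPM in KO and 132 ± 23.3 CPM in WT (SD, n = 3 each). The log2 fold change was 0.01 (SE 0.19) by library name and 0.02 (SE 0.18) by genotype field, with edgeR adjusted p of 0.99993 and 0.991.

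MBP, myelin basic protein, binds the inner faces of the myelin membrane together, and its gene also makes the longer golli transcripts in neurons and immune cells. Mbp (chromosome 18 at 82475146 to 82585637, 99.6% of its span overlaps no other gene) was at 31.6, 33.2 and 30.9 CPM in KO, against 38.0, 36.0 and 31.5 CPM in WT replicates 1, 2 and 3. It was the steadiest member, with a highest level only 1.23 times the lowest and groups that overlapped. By library name the log2 fold change was -0.14 (SE 0.15) and by genotype field -0.04 (SE 0.14), with adjusted p of 0.99993 and 0.976 in edgeR.

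Periaxin and NCMAP are late proteins of myelin. Periaxin, from Prx, is a scaffold that ties the Schwann cell membrane to the basal lamina through dystroglycan. Prx (chromosome 7 at 27499324 to 27520214, 74.1% of the body free) had 42, 18 and 40 counts in KO replicates 1, 2 and 3, against 44, 23 and 35 counts in WT. These were 2.38, 1.30 and 1.96 CPM in KO, against 2.64, 1.93 and 1.53 CPM in WT, with KO replicate 2 lowest and groups that overlapped. The log2 fold change was -0.10 (SE 0.41) by library name and -0.02 (SE 0.40) by genotype field. Ncmap, which encodes a small membrane protein of non-compact myelin, was close to the limit of detection (chromosome 4 at 135369576 to 135398227, 99.7% of the body free). It had 4, 10 and 4 counts in KO, against 0, 5 and 6 counts in WT replicates 1, 2 and 3. The 10 counts of KO replicate 2 are 0.724 CPM (95% Poisson interval 0.347 to 1.33), and the 0 of WT replicate 1 allows up to 0.180 CPM, the level of 3 counts. The intervals of the 6 libraries overlapped except those of KO replicate 2 and WT replicate 1, and Ncmap was not among the genes tested.

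**Figure D1:**
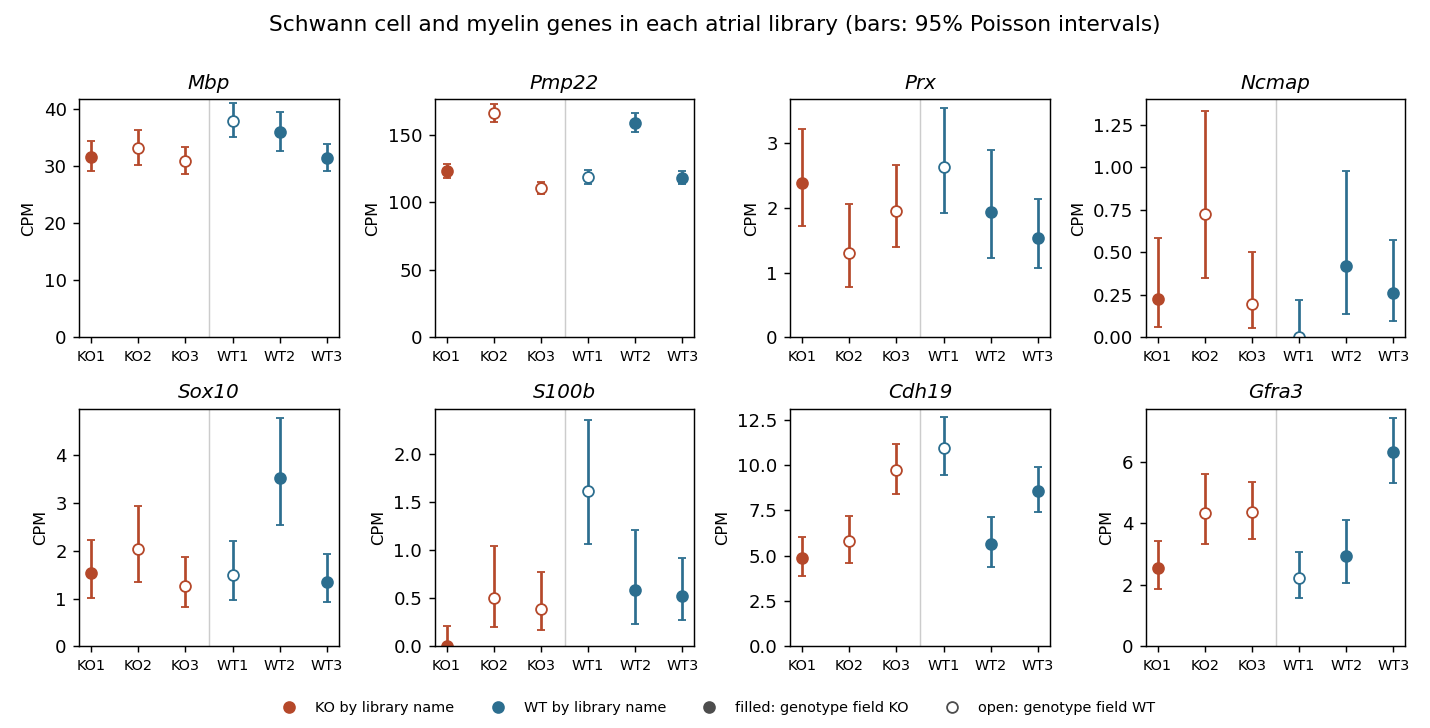
Level of the 8 Schwann cell and myelin genes in each library, in CPM on linear axes from 0, with 95% Poisson intervals as bars. KO1 to WT3 are the replicates by library name (KO red-brown, WT blue), and filled and open points have the genotype field KO and WT. Pmp22, Sox10 and Ncmap were highest in KO replicate 2 and WT replicate 2, and Cdh19 was lowest in those 2 and KO replicate 1. The bars of Sox10 in KO replicate 2 and of Ncmap in WT replicate 2 overlap those of every other library.

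SOX10 is the transcription factor that specifies and maintains Schwann cells. Sox10 (chromosome 15 at 79154908 to 79165240, no overlapping gene) was at 1.53, 2.03 and 1.27 CPM in KO, against 1.497, 3.53 and 1.36 CPM in WT replicates 1, 2 and 3, from 25 to 42 counts a library. Only WT replicate 2, with an interval of 2.54 to 4.77 CPM, lay beyond counting error of some others, namely the 4 libraries other than KO replicate 2. The log2 fold change was -0.38 (SE 0.47) by library name, where WT holds that library, and 0.40 (SE 0.47) by genotype field, where KO holds it. Without WT replicate 2 the sign turned in both readings, to 0.17 (SE 0.50) by library name and -0.15 (SE 0.47) by field.

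S100B is a calcium-binding protein long used to stain Schwann cells, and adipocytes make it too. S100b (chromosome 10 at 76253853 to 76261159) overlaps Dip2a, and only 252 of its 1484 exon bases are free of that gene. It had 0, 7 and 8 counts in KO, against 27, 7 and 12 counts in WT replicates 1, 2 and 3. In CPM these were 0, 0.507 and 0.391 in KO, against 1.62, 0.588 and 0.525 in WT. The highest KO value lay just under the lowest WT value, a pattern with KO below that 2.62% of the genes tested show by library name. The intervals of KO replicates 2 and 3 and WT replicates 2 and 3 all overlapped. The 0 in KO replicate 1 allows up to 0.170 CPM, the level of 3 counts. S100b did not pass the low-count filter. Fitted without the filter, its log2 fold change was -1.59 (SE 0.81) by library name and -1.17 (SE 0.82) by field, with edgeR adjusted p of 0.99986 and 0.859. Both fold changes rest in part on the library at 0. The prior count enters the fold changes and their SE but not the p-values.

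Cadherin-19, from Cdh19, is an adhesion protein of the Schwann cell lineage. Cdh19 (chromosome 1 at 110888326 to 110977584, 93.6% of the body free) was at 4.88, 5.79 and 9.73 CPM in KO, against 10.96, 5.63 and 8.58 CPM in WT replicates 1, 2 and 3. The libraries fell into a lower and an upper trio: the intervals of KO replicates 1 and 2 and WT replicate 2 ended at 7.21 CPM or below, and those of KO replicate 3 and WT replicates 1 and 3 began at 7.42 CPM or above. The upper trio are also the 3 libraries with the highest Prkce, an order seen after the values were known and shared by 5.91% of the genes tested. The fold change on the log2 scale was -0.30 (SE 0.32) in the first reading and -0.47 (SE 0.30) in the second, with edgeR adjusted p of 0.99993 and 0.909. Without the pair of libraries whose Prkce goes against the label it was -0.87 (SE 0.33) by name and -0.99 (SE 0.29) by field, with edgeR adjusted p of 0.998 and 0.837, and neither was called. In both readings these fits hold only lower-trio libraries as KO and only upper-trio libraries as WT. They therefore restate the order seen after the values were known. Leaving out 1 library at a time gave -0.66 (SE 0.34, without KO replicate 3) to -0.068 (SE 0.33, without WT replicate 1) by name and -0.76 (SE 0.32, without WT replicate 3) to -0.29 (SE 0.32, without WT replicate 1) by field.

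GFRA3 is the co-receptor for artemin, a ligand of the GDNF family that signals through RET, and it is found on Schwann cell precursors, non-myelinating glia and sensory and sympathetic neurons. Gfra3 (chromosome 18 at 34689898 to 34720387, no overlapping gene) was at 2.55, 4.35 and 4.35 CPM in KO, against 2.22, 2.94 and 6.30 CPM in WT replicates 1, 2 and 3. WT replicate 3, from 144 counts, had an interval of 5.32 to 7.42 CPM, which overlapped only those of KO replicates 2 and 3. The log2 fold change was -0.05 (SE 0.41) by library name and 0.13 (SE 0.41) by genotype field. Without WT replicate 3 these became 0.55 (SE 0.41) and -0.41 (SE 0.41). The sign also turned without KO replicate 1 by name, to 0.18 (SE 0.46), and without WT replicate 1 by field, to -0.13 (SE 0.40).

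**Figure D2:**
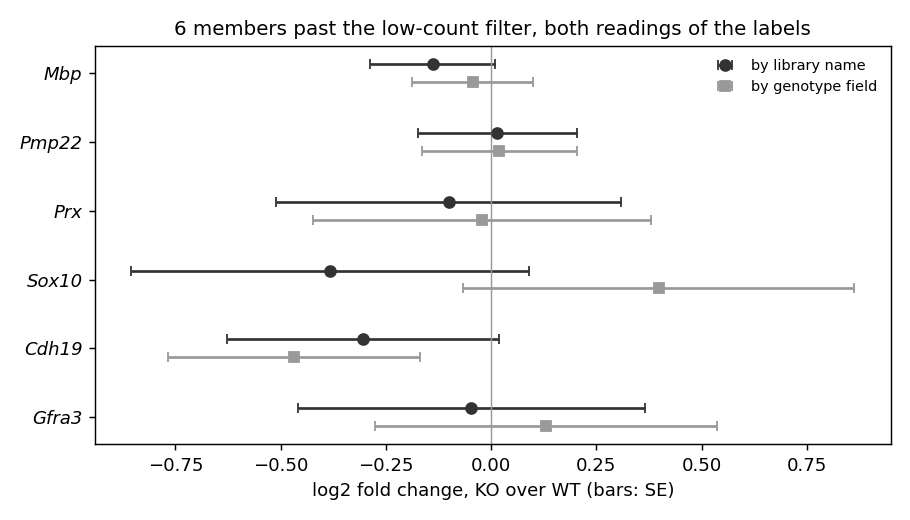
Log2 fold change of KO over WT, with its SE as a bar, for the 6 members past the low-count filter, by library name (circles) and by genotype field (squares). No member was called in either reading, and Sox10 (-0.38 and 0.40) and Gfra3 (-0.05 and 0.13) change side between them.

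Per length, Pmp22 stood far above the others. On the scale of CPM per kilobase of exon free of other genes, Pmp22 averaged 56.3 ± 9.99 and Mbp 3.96 ± 0.336 (SD over 6 libraries), and the ranges of these 2 genes did not overlap. S100b followed at 2.40 ± 2.14, Gfra3 at 1.90 ± 0.765, Cdh19 at 1.77 ± 0.585, Sox10 at 0.613 ± 0.280, Prx at 0.391 ± 0.0998 and Ncmap at 0.137 ± 0.11. From Mbp downward, each gene's range over the libraries overlapped that of the next, and the value of S100b rests on 252 bases. The feature type counted is not given, so the counts may hold reads from introns, which this scale does not allow for. Pmp22 alone made up 67.6% to 77.6% of the summed CPM of the 8 members in each library, so that sum mainly restates Pmp22. It was 166, 214 and 159 CPM in KO, against 175, 209.7 and 168 CPM in WT replicates 1, 2 and 3.

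The members did not share a profile over the libraries. After centring each gene's log2 CPM on its mean, the median of the 6 tested members stayed between -0.13 and 0.09. The root mean square distance from that median was 0.09 for Mbp and 0.17 for Pmp22, but 0.36 for Prx, 0.43 for Sox10, 0.44 for Cdh19 and 0.53 for Gfra3. Of 13492 genes outside the lists with a mean of at least 1 CPM, 12208 lay as close to the median profile as Gfra3 or closer, against 274 for Mbp. The 6 closest were Casp6, Ganab, Ube2q1, Orai3, Tmem59 and Sec11a (0.04 each, over 6 libraries), all nearly flat. The median profile was made from these same 6 members, so each member was set against a profile it helped to make. Counting error also adds to the distance from a nearly flat profile. Sox10 had 25 to 42 counts a library, against 428 to 719 for Mbp. The spread beyond counting error, edgeR's biological coefficient of variation over the 6 libraries, was 14.0% for Mbp, 16.8% for Pmp22, 27.3% for Cdh19, 30.2% for Prx, 33.0% for Gfra3 and 36.1% for Sox10. Their median was 28.8%, against 19.7% over all genes tested. Sox10, Prx, Gfra3 and Cdh19 averaged only 1.87, 1.96, 3.79 and 7.60 CPM, and genes of like level were not compared.

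No other myelin gene examined gave a call. Of 15 listed genes for myelin proteins and myelin lipid synthesis, 6 were tested, 4 higher and 2 lower in KO by library name and 3 each way by genotype field, and 0 were called in either (0% and 0.0136% of all genes). Cnp, an enzyme of non-compact myelin, ran from 18.6 to 25.9 CPM and Cadm4, an adhesion protein on the axon-facing side, from 8.18 to 9.75 CPM. Mal, a lipid raft protein that epithelia also make, had a log2 fold change of 0.15 (SE 0.21) by name and -0.25 (SE 0.19) by field. Nfasc, which anchors the nodes of Ranvier, was at 0.32 (SE 0.32) by name and 0.20 (SE 0.32) by field.

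Genes that set the Schwann cell state were counted next. Of 17 regulators 12 were tested, 3 higher and 9 lower in KO by library name and 5 higher and 7 lower by field, with 0 called. Sox2 lies wholly within another gene and may have gone uncounted, so its 0 gives no level, and Pou3f2 had 0 counts in all 6 libraries. Erbb3, the neuregulin receptor through which axons keep Schwann cells alive, was steady, at 22.5, 24.9 and 19.9 CPM in KO, against 22.6, 22.9 and 18.3 CPM in WT replicates 1, 2 and 3. Egr2 lay between 12.7 and 20.1 CPM. Pou3f1, an early driver of myelination, ran from 0.290 CPM in KO replicate 2 to 1.27 CPM in WT replicate 3, with KO below WT without overlap by name, as 2.62% of genes tested are. Its log2 difference was -1.09 (SE 0.54, edgeR adjusted p 0.99993) by name and 0.78 (SE 0.57) by field, of opposite sign.

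Ngfr, the p75 neurotrophin receptor of non-myelinating and repair Schwann cells and of autonomic neurons, varied most in that list. It was at 1.30, 11.2 and 2.00 CPM in KO, against 0.419, 4.88 and 1.23 CPM in WT replicates 1, 2 and 3. KO replicate 2 and WT replicate 2 were again the highest pair, beyond the intervals of the other 4. Its log2 fold change was 1.19 (SE 1.10) by name and -0.90 (SE 1.12) by field, and the sign turned likewise for Lgi4, a secreted signal of Schwann cells, at 0.39 (SE 0.31) by name and -0.19 (SE 0.31) by field. Zeb2, a repressor needed for myelination, was at -0.23 (SE 0.14) by name and -0.11 (SE 0.15) by field.

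Of 13 genes of non-myelinating Schwann cells 11 were tested, 5 higher and 6 lower by library name and 2 higher and 9 lower by field, with 0 called. Scn7a, the sodium channel of Remak cells, ran from 40.5 to 48.3 CPM, among the steadiest levels in the glial lists here. Art3, at a mean of 337 CPM over all libraries, had a log2 fold change of -0.25 (SE 0.17) by name and -0.03 (SE 0.18) by field. Whether glia made the reads of Scn7a and Art3 was not tested. Gpm6b, a membrane glycoprotein, was at -0.12 (SE 0.17) by name and -0.10 (SE 0.16) by field, and Ptprz1, a receptor phosphatase, at -0.50 (SE 0.49) by name and 0.067 (SE 0.50) by field. Col28a1, a collagen of peripheral nerve glia, was at 1.13, 4.35 and 1.91 CPM in KO, against 3.05, 1.34 and 1.75 CPM in WT replicates 1, 2 and 3, and by field KO lay below WT without overlap, as 4.49% of genes tested do, at a log2 difference of -1.11 (SE 0.41, edgeR adjusted p 0.833), against 0.24 (SE 0.52) by name. Of 9 genes of repair Schwann cells 5 were tested and 0 called. Gap43, a growth protein of axons and immature glia, was at 0.624, 3.19 and 0.733 CPM in KO, against 0, 2.19 and 0.613 CPM in WT, once more highest in KO replicate 2 and WT replicate 2. Of 8 receptors and ligands of the GDNF family, other than Gfra3, 5 were tested and 0 called. Ret, the signalling receptor, was at 1.99, 7.24 and 2.79 CPM in KO, against 2.46, 3.61 and 3.15 CPM in WT, and Artn, the ligand of GFRA3, had at most 9 counts in any library. Nrtn, which encodes the ligand neurturin, lay above WT in KO without overlap by genotype field, as 7.48% of genes tested do, at a log2 difference of 1.19 (SE 0.39, edgeR adjusted p 0.786), against -0.17 (SE 0.53) by name.

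**Figure D3:**
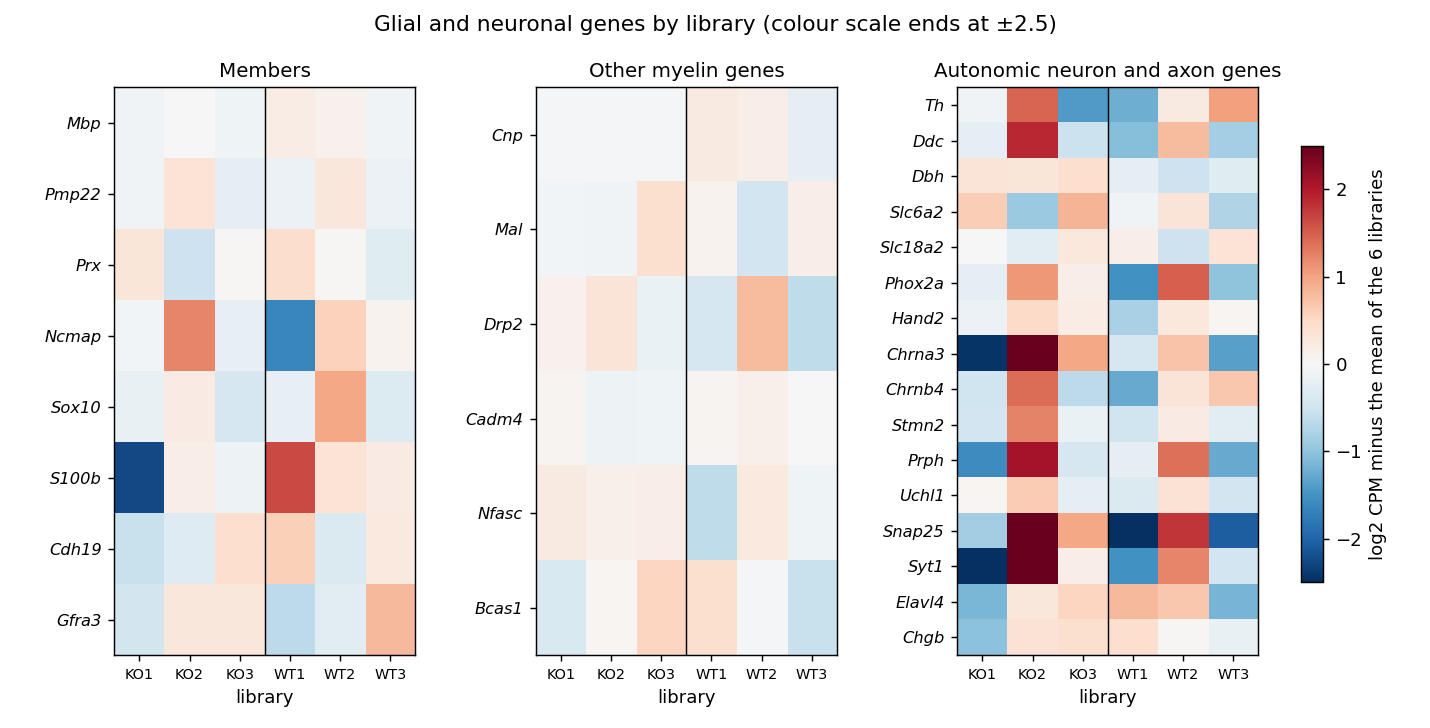
Log2 CPM of each gene minus its mean over the 6 libraries (red above, blue below, colours end at ±2.5), for the 8 members, the 6 tested other myelin genes and the 16 tested autonomic neuron and axon genes, with KO libraries left of the line and WT libraries right of it. Mbp and Pmp22 are pale throughout, while Snap25 and Syt1 span the scale.

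Neuronal genes had a wider spread between libraries than the glial members, a comparison of medians with no test. Of 29 autonomic neuron and axon genes 16 were tested, 13 higher and 3 lower in KO by library name and 4 higher and 12 lower by genotype field, and 0 were called in either. Their median log2 fold change was 0.40 by library name and -0.43 by field. Their median biological coefficient of variation was 52.2%, against 28.8% for the members, with no matching for expression level. KO replicate 2 was the highest library for 10 of the 16, against 15.6% of all genes tested and 1 of 6 members (Pmp22). Snap25, a protein of synaptic vesicle release, was at 0.454, 10.4 and 1.91 CPM in KO, against 0, 3.45 and 0.131 CPM in WT replicates 1, 2 and 3. Syt1, the calcium sensor of such release, was at 0.0567, 9.05 and 1.03 CPM in KO, against 0.240, 2.27 and 0.613 CPM in WT. In the same list Chrna3, a nicotinic receptor subunit of ganglia, had a log2 fold change of 1.84 (SE 1.24) by name and -2.46 (SE 1.15) by field. The sign turned between the readings as well for Ddc, which makes dopamine, at 1.002 (SE 0.77) by name and -0.68 (SE 0.82) by field, and for Stmn2, a growth cone protein, at 0.57 (SE 0.43) by name and -0.55 (SE 0.44) by field. Prph, a neurofilament-like protein of peripheral neurons, was at 0.397, 6.30 and 1.03 CPM in KO, against 1.20, 3.87 and 0.525 CPM in WT.

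KO replicate 2 and WT replicate 2 were the highest pair for 8 of the 16 tested neuronal genes and for 2 of the 6 tested members, Pmp22 and Sox10, against 10.3% of all genes tested; this pair was picked after the values were seen. For Sox10, KO replicate 2 lay within counting error of every other library. The untested Ncmap had the same order, but its WT replicate 2 lay within counting error of every other library. Mbp, Prx, Cdh19 and Gfra3 did not have that order, and Cdh19 was among the lower trio in both libraries. These are also the 2 libraries with the lowest total counts. Dbh, the last enzyme of noradrenaline synthesis, was among the neuronal genes without that order. It was at 35.8, 35.3 and 38.2 CPM in KO, against 24.3, 19.9 and 23.2 CPM in WT replicates 1, 2 and 3, so that KO lay above WT without overlap by name, as 3.33% of genes tested do. The log2 difference was 0.69 (SE 0.15, edgeR adjusted p 0.99993) by name and -0.30 (SE 0.24) by field.

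**Figure D4:**
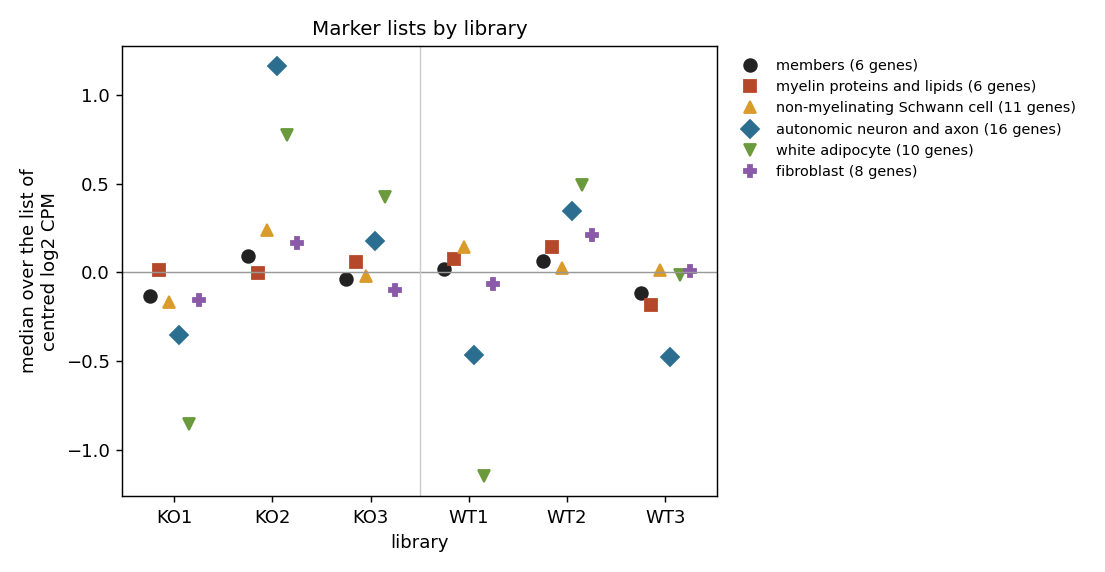
Median over each marker list of the centred log2 CPM, by library, KO libraries left of the line and WT libraries right of it. The members stay between -0.13 and 0.09, while the neuronal list ranges from -0.48 in WT replicate 3 to 1.16 in KO replicate 2 and the white adipocyte list from -1.14 in WT replicate 1 to 0.77 in KO replicate 2.

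Markers of other cell types differed in whether they were high in the same pair of libraries. The 8 tested of 9 fibroblast markers had KO replicate 2 and WT replicate 2 as highest pair in 4 cases, with a summed level of 4288, 5016 and 4396 CPM in KO, against 4556, 5684 and 4815 CPM in WT replicates 1, 2 and 3. White adipocyte genes, all 10 tested, had that order in 4 cases, and their median centred level was highest in the same pair, 0.77 in KO replicate 2 and 0.49 in WT replicate 2. Their summed level was not: it was 4115, 4468 and 4437 CPM in KO, against 4765, 4456 and 4954 CPM in WT replicates 1, 2 and 3. That order was seen in 0 of the 12 cardiomyocyte and 0 of the 9 epicardial and mesothelial genes tested, and in 1 of the 8 perineurial genes. Among the short lists, 3 of the 4 lymphoid and 2 of the 4 brown adipocyte genes tested had that order. The 9 endothelial markers had it in 2 cases and summed to 1248, 1518 and 1254 CPM in KO, against 1215, 1411 and 1428 CPM in WT. The 10 perineurial and endoneurial markers, 8 of them tested with 4 higher and 4 lower by library name, summed to 71.2, 68.5 and 70.3 CPM in KO, against 104, 77.1 and 79.2 CPM in WT. Among them, Etv1 had a log2 fold change of -0.42 (SE 0.20) by name and -0.23 (SE 0.22) by field, and Slc2a1, the glucose transporter of the perineurium, one of -0.46 (SE 0.36) by name and -0.033 (SE 0.38) by field. The part of these cells, and of depth, in the levels of Pmp22 and Sox10 was not tested.

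Central glia and melanocytes express some of the same genes. Of 6 genes of oligodendrocytes and astrocytes, Mobp, Olig2, Opalin and Hapln2 had 0 counts in all 6 libraries, Mog had at most 8 counts and Aldh1l1, which other tissues also make, lay between 3.48 and 7.24 CPM. Melanocytes, which also need SOX10, populate parts of the mouse heart. Dct, a pigment enzyme, was at 1.47, 1.52 and 1.91 CPM in KO, against 2.99, 1.51 and 5.82 CPM in WT replicates 1, 2 and 3, while Tyr had at most 8 counts and Tyrp1 at most 16. Mlana, at 108 to 165 CPM, and Mitf, a transcription factor that other cells also make, at 31.8 to 46.3 CPM, were the most abundant of the 8 melanocyte genes. Dct and Mitf were highest in WT replicate 3, and Mlana was highest in KO replicate 2 and WT replicate 2, the libraries where Sox10 was highest. The part of melanocytes in the level of Sox10 was not tested.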

How the data were processed

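RNA of 6 atria was sequenced, 1 library per mouse, from TruSeq v2 libraries, per the labels' protocols. The authors deposited raw read counts per Ensembl gene. FastQC 0.11.5, MultiQC 1.7, HISAT2 2.1.0, featureCounts 1.5.0-p3 and GRCm38 are named in the submitters' processing notes. The sources used here do not give the annotation release, feature type or strand option. Of the 1348 protein-coding genes that lie wholly under other genes, 98.1% are at 0 in all libraries, so a gene at 0 may be uncounted.

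Here, positions and overlaps came from GENCODE M21 (54809 of 54838 identifiers matched). edgeR 4.0.16 (R 4.3.3) gave CPM after TMM scaling and quasi-likelihood tests (filterByExpr, robust, two-sided, adjusted p 0.05), with all 6 libraries and no covariate. Each SE was derived as the size of the fold change (log2) divided by √F. Centred log2 CPM used a prior count of 2. Poisson intervals (95%) and floors of 3 counts cover counting error only. The tests were tried on simulated counts. Alternatives were DESeq2 1.42.0, limma 3.58.1 and the settings in the closing section.

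The members and lists were chosen with earlier results of these data known. Named genes are the members, Prkce, Dbh, the genes closest to the members' profile and genes of each list with the smallest p; other named genes were chosen after their values were seen. Same-numbered libraries deviated together (correlation of deviations 0.12 to 0.16 by library name, 0.12 to 0.27 by field), so a fit with the replicate number as a block was run; the pairing comes from the titles' numbers. Some listed genes are not reported here and were left out of the lists.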

Additional observations from a re-analysis of the deposited data

How the results depend on the processing

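No member was called under any alternative, though DESeq2 by field gave no adjusted p for Sox10, Cdh19, Prx and Gfra3: 168 of their refitted log2 fold changes kept the sign and 27 turned it. By library name the sign turned with the replicate block for Gfra3 (0.046), with the Y-linked level as covariate for Sox10 (0.16) and Prx (0.22), in the numbered name series alone for Cdh19 (0.13) and Pmp22 (-0.00096), and without the 2 libraries whose Prkce goes against the label for Sox10 (0.32). By field it turned in the numbered series for Mbp (0.069) and Prx (0.058), with the Y-linked level for Prx (0.043) and without the libraries at odds with Prkce for Gfra3 (-0.28). In the numbered series every library has opposite labels in the 2 readings, so both give the same fit with the sign swapped. A member with the same sign in both main readings must therefore turn there in 1 of them, which says nothing of its stability. Leaving out each library gave, by name, -0.66 to -0.068 for Cdh19, -0.63 to 0.17 for Sox10, -0.17 to 0.18 for Pmp22, -0.30 to 0.14 for Prx and -0.33 to 0.55 for Gfra3, and by field, -0.76 to -0.29 for Cdh19, -0.11 to 0.036 for Mbp, -0.15 to 0.65 for Sox10, -0.13 to 0.22 for Pmp22, -0.24 to 0.23 for Prx and -0.41 to 0.36 for Gfra3. Over all genes, calls by name (0) became 1 with no low-count filter, 3 in the numbered series and 6 without the libraries at odds with Prkce, and 0 to 4 leaving out each library (2 without WT replicate 1, 4 without WT replicate 3). Calls by field (2) became 27 in DESeq2, 1 in limma-voom, 25 with no filter, 51 with the replicate block, 7 with the name series as covariate and 0 to 2 leaving out each library (0 without KO replicate 3 or WT replicate 1). The replicate block changed no member's call. The cause of these changes was not tested. Counts of at most 42 for Sox10, 44 for Prx, 27 for S100b and 10 for Ncmap limit what could be seen in them.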

Other observations

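Mlana, a melanosome gene, was at 119.9, 165 and 146 CPM in KO replicates 1, 2 and 3, against 108, 161 and 109.99 CPM in WT replicates 1, 2 and 3. It was thus highest in the same pair of libraries as Pmp22 and stood far above the other pigment genes, of which Dct reached 5.82 CPM and Pmel 1.53 CPM. Its log2 fold change was 0.18 (SE 0.19) by library name and -0.10 (SE 0.19) by genotype field, and it was not called in edgeR's quasi-likelihood test.

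Atf3, an injury-induced transcription factor of the repair Schwann cell list that many stressed cells also make, was at 52.1, 59.4 and 244 CPM in KO replicates 1, 2 and 3, against 118, 52.1 and 206 CPM in WT replicates 1, 2 and 3. The 3 highest libraries were the 3 with the highest Prkce, as for Cdh19. This order was noticed after the values were known, and 5.91% of the genes tested share it.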
